A study of Mus musculus with 7 samples.

Results

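The genes described here are 10 enzymes and carriers that supply the building blocks of fatty acids, assemble them, or place them on glycerol: Slc25a1, Acly, Acss2, Pklr, Me1, Acaca, Acacb, Fasn, Aacs and Gpam. They were chosen by name, with earlier results of these data known, from the 32451 genes on the array. Their probes were found through the RefSeq accession that the scanner files give for each probe. All 10 had at least 1 probe, 17 probes in all. Livers of male C57/BJ mice were compared on Agilent arrays of 1 colour. The mice had eaten a high-fat diet (HFD, D12331 from ResearchDiets, n = 3) or control chow (Provimi Kliba, n = 4) for 20 weeks. Both groups began their diet at 6 weeks of age and were 26 weeks old at harvest, and no genetic change is given for either group. The diets came from different suppliers and the labels do not describe a matched low-fat diet. No label ties a sample to an animal, so the p-values below measure the spread between these samples, which may be technical.

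Liver makes fatty acids from carbohydrate by moving citrate out of the mitochondrion, splitting it to acetyl-CoA in the cytosol, carboxylating acetyl-CoA to malonyl-CoA and joining malonyl units into palmitate with electrons from NADPH. The transcription factors SREBP-1c and ChREBP are the classical activators of these genes, in response to insulin and to sugar. Acyl-CoA is then esterified to glycerol-3-phosphate on the way to triglyceride. In whole liver, fewer cells of a type and less RNA per cell cannot be told apart.

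The diet comparison rests on the authors' deposited value table, which gives log2 values of 1615 of the 39429 probes in all 7 samples. The 3 HFD scanner files followed their own columns of that table with a Pearson r of at least 0.9999 across probes. The 4 scanner files labelled chow followed theirs with r of 0.580 to 0.589, so these files were not used for the comparison. In 7 of the 10 genes at least 1 probe was in the table, 10 probes in all. Slc25a1, Acss2 and Gpam were not in it and have HFD levels only. At every one of the 1615 probes the HFD and chow values did not overlap, so the table had been selected on this comparison. A place in it, the separation of the groups and the p-values that follow are therefore not independent evidence. All 3 HFD arrays share a scan day. That of the arrays behind the chow columns is unknown, so scan day and diet cannot be told apart.

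All 7 genes in the table were higher in HFD, by 1.62-fold for Acaca to 3.97-fold for Aacs. Of these 7, Fasn, Pklr, Acly, Aacs and Acaca passed at an adjusted p under 0.05 in limma (Benjamini-Hochberg, over every gene of the array), and Me1 and Acacb did not. By the same rule 1.0% of all genes were called higher, and 2.47% of all genes were listed in the table as higher. The members were chosen with earlier results of these data known, so their counts are a description only. Because the groups do not overlap, leaving out a sample cannot turn a direction, but calls were lost. None of the 7 passed without any 1 of the chow samples or HFD replicates 1 or 2, and Fasn alone passed without HFD replicate 3. In each of those fits all 7 had an unadjusted limma p under 0.05. So did all 801 higher and 687 lower genes of the selected table, so this does not set the members apart. The median log2 difference of all table genes was 0.44, and it was 0.23 with columns centred on their medians and 0.31 after quantile normalization. With the scaling, the balance of calls over all genes shifted: 325 were higher and 263 lower as deposited, 187 and 614 with centred columns, and 285 and 520 after quantile normalization. No probe in the table had group means closer than 0.33, and 801 of the table genes were higher and 687 lower. The median of 0.44 therefore sits near the low edge of the higher genes and is not a typical shift. Relative to 0.44, the members lay higher by 0.26 for Acaca to 1.55 for Aacs on the log2 scale. Among the table genes that were higher in HFD the median was 0.82, so Acaca (0.70) lay below the typical higher gene, Acly (0.83) about level with it, and Pklr, Acacb, Me1, Fasn and Aacs above it. The plot of log2 fold changes shows these differences with their intervals.

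**Figure D1:**
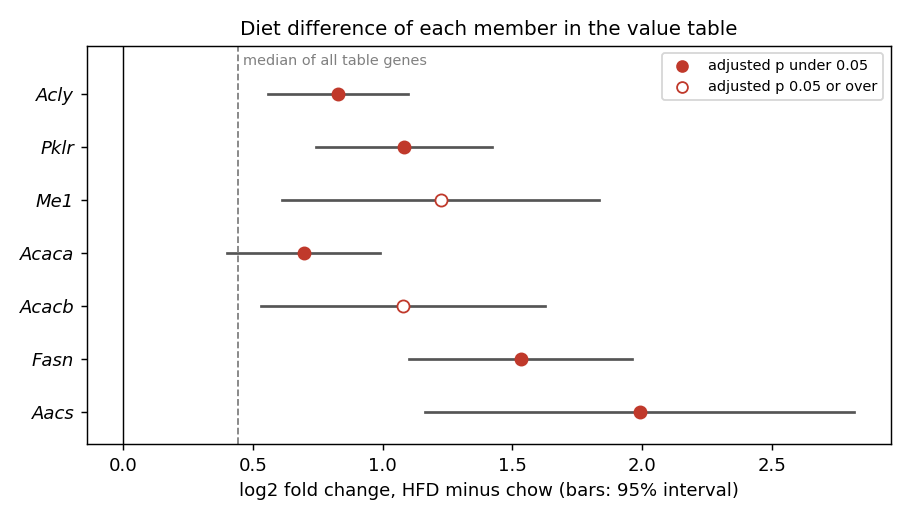
Log2 fold change, HFD minus chow, of the 7 genes in the value table, with 95% intervals from limma as bars. Filled points passed at an adjusted p under 0.05 and open points did not, and the dashed line is the median of all table genes at 0.44. That median depends on how many of the selected genes were higher or lower, so the line is not a baseline. The lower end of the Acaca interval, 0.40, lies below the line.

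Promoter windows of the members are shown because 7 of the 10 genes were listed as higher in HFD. The other 3 are not in the table, so whether they differ with diet is unknown, and their windows are counted too. Each window runs from 250 bases before to 50 bases after a RefSeq start site in build GRCm38.p6. All 10 genes matched, with 13 windows, since Pklr, Me1 and Gpam have 2 each. The windows printed here belong to Fasn, to Acly, to the more downstream start of Pklr and to Aacs, which had the largest fold. They are written 5′ to 3′ on the gene's strand, and capitals mark matches to any of the 5 motifs searched.
Fasn, chr11:120824498-120824797, minus strand: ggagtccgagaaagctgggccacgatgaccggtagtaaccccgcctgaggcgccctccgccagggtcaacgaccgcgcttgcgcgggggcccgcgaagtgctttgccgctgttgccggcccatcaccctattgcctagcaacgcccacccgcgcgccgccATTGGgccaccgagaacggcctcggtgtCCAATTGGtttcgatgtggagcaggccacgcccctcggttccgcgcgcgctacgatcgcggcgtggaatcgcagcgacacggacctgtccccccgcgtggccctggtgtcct
Acly, chr11:100527951-100528250, minus strand: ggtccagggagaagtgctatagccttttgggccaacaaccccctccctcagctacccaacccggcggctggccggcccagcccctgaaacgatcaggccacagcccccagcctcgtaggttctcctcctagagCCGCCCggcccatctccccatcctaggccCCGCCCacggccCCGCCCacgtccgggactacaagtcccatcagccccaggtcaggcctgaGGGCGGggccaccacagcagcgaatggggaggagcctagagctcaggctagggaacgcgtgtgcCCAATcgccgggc
Pklr, chr3:89136373-89136672, plus strand: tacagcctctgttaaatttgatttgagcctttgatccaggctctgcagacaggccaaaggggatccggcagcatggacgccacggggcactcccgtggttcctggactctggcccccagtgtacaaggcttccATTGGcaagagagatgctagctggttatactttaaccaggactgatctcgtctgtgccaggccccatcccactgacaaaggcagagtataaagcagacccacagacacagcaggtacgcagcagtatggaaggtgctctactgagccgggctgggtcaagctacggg
Aacs, chr5:125475623-125475922, plus strand: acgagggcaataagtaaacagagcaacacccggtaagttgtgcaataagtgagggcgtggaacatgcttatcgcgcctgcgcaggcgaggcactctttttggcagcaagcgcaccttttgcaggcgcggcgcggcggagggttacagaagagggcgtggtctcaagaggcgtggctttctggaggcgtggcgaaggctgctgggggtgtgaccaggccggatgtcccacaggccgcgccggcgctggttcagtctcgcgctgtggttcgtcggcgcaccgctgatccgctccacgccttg

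The motifs were searched on both strands as exact letters, so a site spelled with other letters would be missed. The sterol regulatory element TCACNCCAC was in 0 of the 13 windows and in 1.24% of all 32851 windows of that length. The LXR element, AGGTCA followed by any 4 bases and AGGTCA again, was in 0 of the 13 and in 0.0152% of all windows. With shares this small, 0 of 13 windows cannot tell the members apart from other windows. The E-box CACGTG was in 1 of the 13, that of Slc25a1, and in 7.15% of all windows. The CCAAT box, the letters bound by the factor NF-Y, was in 8 of the 13 windows and in 37.4% of all windows. The GC box GGGCGG was in 5 of the 13 and in 35.7% of all. The Fasn window held 3 CCAAT matches, at positions -90, -62 and -59 from the start site, of which the last 2 overlap. The Acly window held 1 CCAAT match after the start site and 4 GC boxes. The Pklr window shown held 1 CCAAT match, at position -117, and the Aacs and Acaca windows held no match to any of the 5 motifs.

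Acetyl-CoA reaches the cytosol by 2 routes among these genes. The citrate carrier Slc25a1 exports mitochondrial citrate, which ATP citrate lyase (Acly) cleaves, while Acss2 activates free acetate. The brighter Acly probe, designed to transcript NM_001199296, had log2 values of 14.98, 14.65 and 14.89 in HFD, against 13.98, 13.92, 14.01 and 14.14 in chow. The lowest HFD value lay 0.51 above the highest chow value. Acly was 1.77-fold higher in HFD (log2 fold change 0.83, SE 0.11, adjusted p = 0.0294 in limma). The second Acly probe, designed to transcript NM_134037, had values of 8.43, 8.39 and 8.41 in HFD, against 7.91, 7.77, 7.74 and 7.80 in chow. Its log2 difference was 0.60 with an SE of 0.09, a 1.52-fold difference in the same direction.

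Slc25a1 and Acss2 had no value in the table, so no diet difference is given for them. On the 3 HFD arrays the Slc25a1 probe had processed signals of 13666, 9252 and 9444 intensity units. Scaled to each array's 75th percentile, its log2 levels were 3.91, 3.70 and 3.60, highest in HFD replicate 1. Acss2 had a pair of probes, with log2 levels of 3.88, 4.36 and 3.86 for the brighter and 1.66, 2.11 and 1.63 for the dimmer. Both were highest in HFD replicate 2 and nearly level in the other 2 samples.

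Carbon and electrons for the pathway come in part from Pklr, the liver and red cell pyruvate kinase that ends glycolysis, and from Me1, the cytosolic malic enzyme that yields NADPH and pyruvate. Pklr had log2 values of 11.12, 10.65 and 10.88 in HFD, against 9.96, 9.62, 9.74 and 9.89 in chow. All HFD values were at least 0.69 above the highest chow value. It was 2.12-fold higher in HFD (log2 fold change 1.08, SE 0.14, adjusted p = 0.0273 in limma).

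Me1 had 3 probes to the same transcript, all in the table. The brightest had log2 values of 14.71, 14.43 and 14.49 in HFD, against 12.70, 13.54, 13.83 and 13.21 in chow. The HFD samples lay close together, while chow ranged over 1.13 on the log2 scale with chow replicate 1 lowest. With this probe the difference was 2.33-fold (log2 fold change 1.22, SE 0.26, adjusted p = 0.0668 in limma). A second probe had 14.21, 14.13 and 14.14 in HFD, against 12.65, 13.24, 13.23 and 12.71 in chow, and the third had 13.82, 13.71 and 13.68 in HFD, against 12.20, 12.83, 12.85 and 12.31 in chow. On these probes chow replicates 1 and 4 lay below chow replicates 2 and 3, and every HFD value lay at least 0.83 above the highest chow value. Their log2 differences were 1.20 (SE 0.18) and 1.19 (SE 0.19), so the 3 probes differed by less than their SEs. With the mean of the 3 probes Me1 had a log2 fold change of 1.21 and an adjusted p of 0.0414 in limma, so its call rests on the choice of probe. Over all 14 alternatives its adjusted p in limma ran from 0.00306, with adjustment over the table alone, to 0.467 with the replicate number as a block.

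Malonyl-CoA is made by the acetyl-CoA carboxylases. Acaca encodes the cytosolic form that feeds palmitate synthesis, and Acacb the form at the mitochondrial surface whose product restrains fatty acid entry through carnitine palmitoyltransferase. The Acaca probe in the table had log2 values of 14.11, 13.69 and 14.05 in HFD, against 13.21, 13.22, 13.34 and 13.25 in chow. The chow values spread over 0.13 alone, and HFD replicate 2 lay nearest to them. Acaca was 1.62-fold higher in HFD (log2 fold change 0.70, SE 0.13, adjusted p = 0.0484 in limma), the smallest fold among the 7 genes in the table. This call was lost with columns centred on their medians (adjusted p = 0.201), after quantile normalization (adjusted p = 0.0829) and with dim values raised to the detection floor (adjusted p = 0.0510). Adjusted over all probes of the array rather than genes, the listed Acaca probe had an adjusted p of 0.0524 in limma. Over all 14 alternatives its adjusted p in limma ran from 0.00222, with adjustment over the table alone, to 0.309 with the replicate block.

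Acacb had log2 values of 13.61, 14.05 and 13.84 in HFD, against 12.20, 12.86, 13.16 and 12.80 in chow. As with the brightest Me1 probe, chow replicate 1 was lowest and chow replicate 3 highest, and chow ranged over 0.96. The difference, 2.11-fold, missed the threshold (log2 fold change 1.08, SE 0.23, adjusted p = 0.0693 in limma). Acaca and Acacb also had probes outside the table, for which no diet difference is given. A second Acacb probe had log2 levels of 0.35, 0.96 and 0.58 on the HFD arrays, in the same order of samples as the listed probe. The additional Acaca probes had levels of -1.01, -1.20 and -1.12 and of -2.37, -3.10 and -2.53, both lowest in HFD replicate 2, as was the listed probe.

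Fasn encodes fatty acid synthase, the multi-domain enzyme that builds palmitate from malonyl-CoA. Its single probe had log2 values of 11.39, 10.82 and 11.06 in HFD, against 9.82, 9.25, 9.53 and 9.63 in chow. The gap between the lowest HFD and the highest chow value was 1.0 on the log2 scale, the widest of the 10 listed probes. Fasn had the smallest adjusted p of the 7 genes (0.0249 in limma), with a 95% interval of its log2 fold change of 1.10 to 1.96 and a 2.89-fold difference.

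Aacs, acetoacetyl-CoA synthetase, activates acetoacetate in the cytosol so that ketone carbon can enter lipid synthesis. It had log2 values of 13.36, 13.39 and 12.59 in HFD, against 11.93, 10.93, 10.55 and 11.08 in chow. Both groups were spread widely, with HFD replicate 3 lowest in HFD and chow replicate 1 highest in chow. Aacs was 3.97-fold higher in HFD (log2 fold change 1.99, SE 0.35, 95% interval 1.16 to 2.82, adjusted p = 0.0469 in limma). Adjusted over all probes of the array rather than genes, its adjusted p was 0.0509 in limma. The log2 fold change was 2.26 without chow replicate 1 and 1.80 without chow replicate 3.

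Gpam encodes the mitochondrial glycerol-3-phosphate acyltransferase, which adds the first acyl chain on the way to triglyceride. Its probe was not in the table. On the HFD arrays its log2 levels were -0.38, -1.32 and -1.02, from signals of 703, 284 and 385 intensity units. This was the widest spread of the 17 probes (SD 0.48, n = 3), and HFD replicate 1 was highest.

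**Figure D2:**
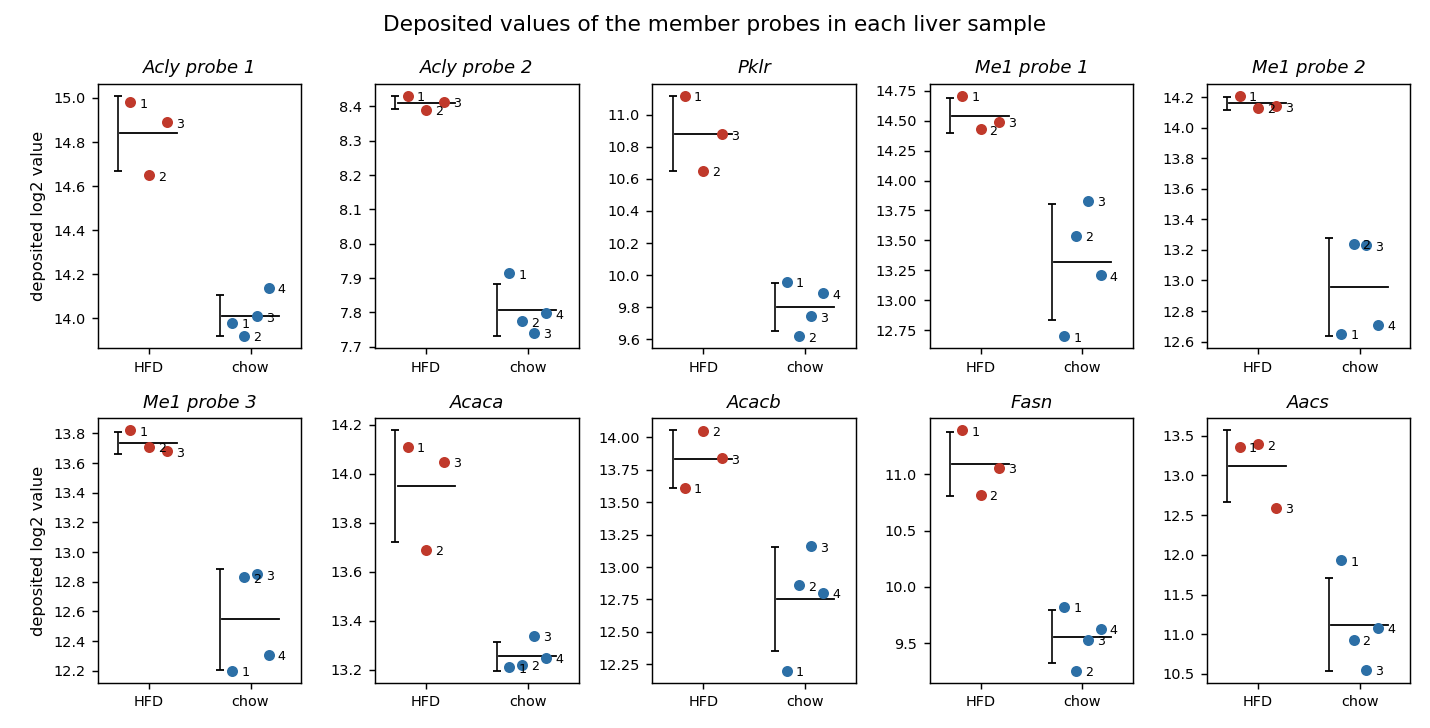
Deposited log2 values of the 10 listed probes, HFD left and chow right in each panel, with points numbered by replicate, a line at the group mean and bars of 1 SD (n = 3 for HFD, n = 4 for chow). Each panel has its own axis. The HFD points lie above the chow points in every panel, a separation that the selection of the table fixed.

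The members did not share 1 order of samples within a diet. On the probe used for each gene, HFD replicate 1 held the highest deposited value of Acly, Pklr, Me1, Acaca and Fasn, and HFD replicate 2 the lowest. These orders follow the scaling in part: relative to each array's 75th percentile, HFD replicate 3 was highest for Acly (5.16, 5.01 and 5.25 in HFD replicates 1, 2 and 3) and for Acaca (4.36, 4.04 and 4.45). On the third Me1 probe HFD replicate 3 held the lowest deposited value. Acacb ran the other way, lowest in HFD replicate 1 and highest in replicate 2. In chow, replicate 1 was highest for Pklr, Fasn and Aacs and lowest for Me1, Acaca and Acacb. Its deviation from the chow mean was 0.81 for Aacs and 0.26 for Fasn, against -0.62 for Me1 and -0.56 for Acacb. The map of deviations shows the first Me1 probe and Acacb with a like pattern in chow, low in replicate 1 and high in replicate 3. Aacs had the opposite one. On the other Me1 probes chow replicate 4 was low too (-0.25 and -0.24), against 0.045 for Acacb. With 4 chow samples these orders are a description only.

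**Figure D3:**
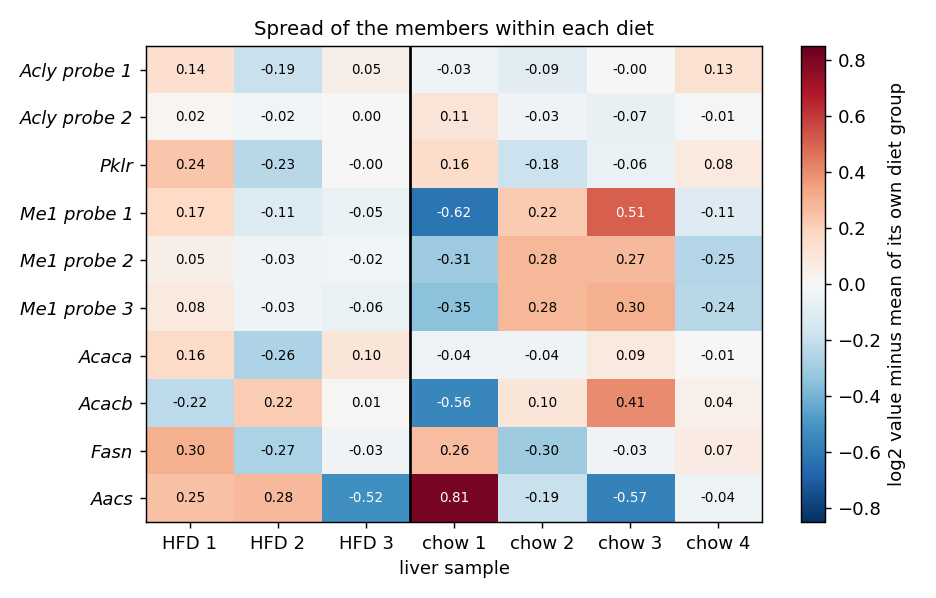
Log2 value of each listed probe minus the mean of its own diet group, in the 3 HFD and 4 chow samples. Red is above and blue below the group mean, and the number is printed in each cell. Chow replicate 1 reaches 0.81 for Aacs and -0.62 for the first Me1 probe.

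A difference of log2 values between 2 genes within a sample is free of any constant added to a column, so the members were also compared in pairs. Of 21 pairs of the 7 genes, 5 had differences that did not overlap between diets, a smaller share than the 37.2% of all pairs of higher table genes. Fasn minus Acaca was -2.86 ± 0.14 in HFD (SD, n = 3) and -3.70 ± 0.25 in chow (SD, n = 4), so Fasn lay higher by 0.84 more than Acaca did. Fasn likewise exceeded Acly by 0.70 and Pklr by 0.45, and Pklr exceeded Acaca by 0.39 and Acly by 0.26. After quantile normalization, which is not a constant shift, the 3 pairs with Fasn did not overlap (changes of 0.77, 0.68 and 0.51), while both pairs of Pklr with Acaca (0.26) and Acly (0.18) did. For each of these 5 pairs the two-sided exact permutation p was 0.0571, which follows from the lack of overlap and is no further evidence. A value of 0.0571 is the smallest that 3 against 4 samples can give when the smaller tail is doubled, as was done here. Adjusted over the 21 pairs the exact permutation p was 0.240, so none can pass at 0.05 in this test. For Acacb minus Acaca the change was 0.38 with overlapping groups (exact permutation p = 0.400, adjusted p = 0.525). These levels come from different probes, so a difference within a sample is read only against the same difference in other samples.

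**Figure D4:**
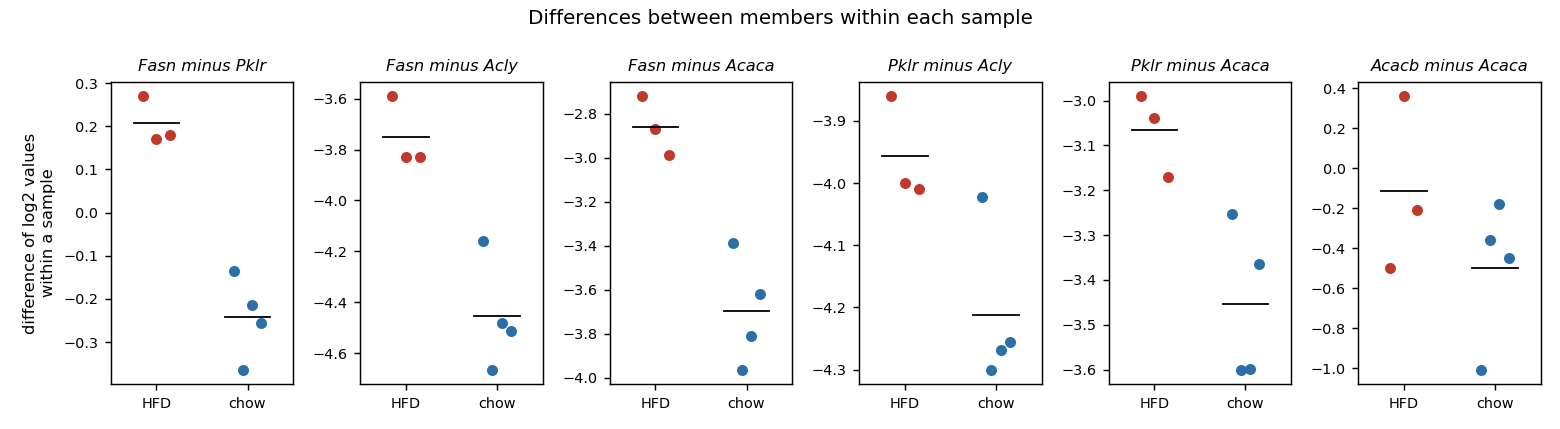
Difference of log2 values between 2 genes within each sample, HFD left and chow right, with a line at the group mean. The first 5 panels are the pairs whose groups did not overlap, and the last, Acacb minus Acaca, overlapped.

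All 17 probes were well above background on all 3 HFD arrays, with signals of 83.1 to 32471 intensity units and none saturated. The scanner software's own error of a spot was 10% to 10.8% of its signal for these probes. Their SD over the 3 HFD arrays ran from 0.01 to 0.48 on the log2 scale, with a median of 0.22, against a median of 0.19 over the 23919 probes above background on 2 or 3 HFD arrays. Of the 17 probes, 10 had an SD above that median. The 3 Me1 probes were among the steadiest, with SDs of 0.01 to 0.06. HFD replicate 1 had a negative control signal of 46.9, outside the scanner software's range, against 29.9 and 30.8 on the other HFD arrays. So few arrays per diet limit the precision, and the part of spot error in it was not tested.

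**Figure D5:**
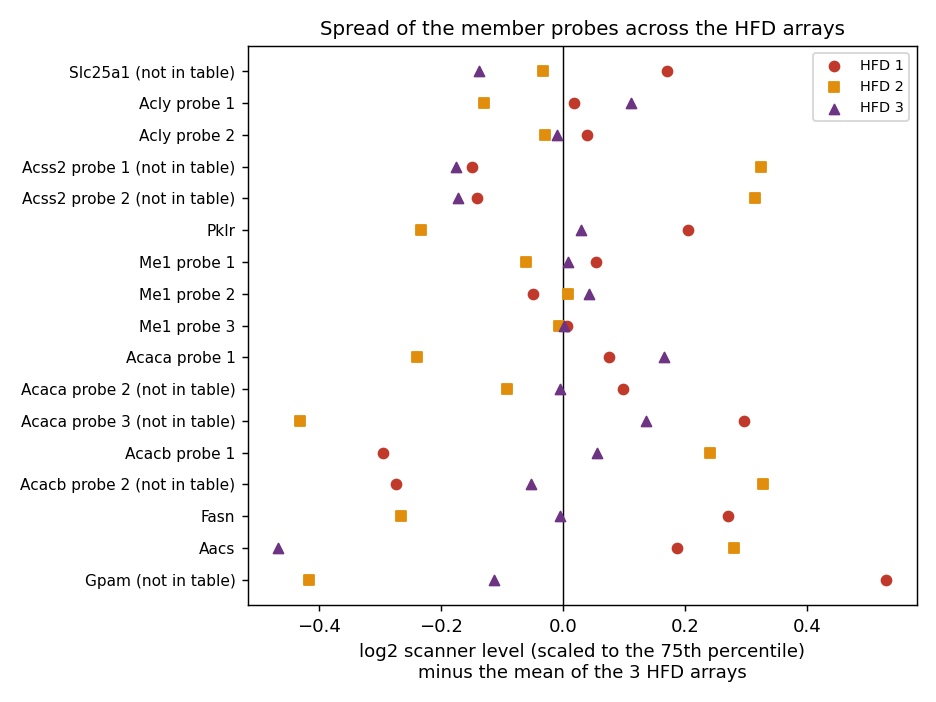
Log2 scanner level of each of the 17 probes minus its mean over the 3 HFD arrays, with levels scaled to each array's 75th percentile. Each marker is 1 array, and probes outside the table are named as such. Gpam has the widest spread and the third Me1 probe the narrowest, and the pair of Acss2 probes have the same order.

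Other genes of the pathway were read from 9 lists with 120 genes on the array. Of these 120, 32 had a place in the table, each with a higher HFD mean, and 19 passed. Over all genes, 2.47% were listed as higher and 1.0% were called higher. The lists were chosen with earlier results of these data known, so these counts are a description only. The median log2 difference of the listed genes is given for each list, to be read beside 0.82, the median of all higher table genes. Both listed regulators of lipogenesis, of 18 on the array, passed (median 2.04): Thrsp, a hepatic lipogenic factor, had a log2 fold change of 2.40, and Srebf1, which encodes SREBP-1, of 1.69. Elongation and desaturation had 6 of 13 genes in the table (median 1.12), of which Fads2, Elovl6 and Fads1 passed with log2 fold changes of 1.30, 0.92 and 0.84. These are a pair of fatty acid desaturases and a long-chain elongase.

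Of 20 genes of glycolysis and pyruvate entry, 8 were listed (median 0.72) and 6 passed. Pdk1, a kinase that restrains pyruvate dehydrogenase, had a log2 fold change of 0.93, Mpc1, a subunit of the mitochondrial pyruvate carrier, of 0.80, Pdha1, a subunit of pyruvate dehydrogenase, of 0.78, and Khk, ketohexokinase, of 0.73. Of 10 NADPH supply genes, 3 were listed (median 0.74), and Pgd (log2 fold change 1.01) and Tkt (0.74), both of the pentose phosphate pathway, passed. Citrate formation had 3 of 8 genes listed (median 0.44), of which Cs, citrate synthase, passed with a log2 fold change of 0.88.

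Ketone body metabolism had 3 of 11 genes listed, and all 3 passed (median 0.82). Among them, Bdh1 had a log2 fold change of 0.87 and Acat1 of 0.82. Acat1 is mitochondrial acetoacetyl-CoA thiolase, and Bdh1 reduces acetoacetate to hydroxybutyrate. Triglyceride assembly had 3 of 15 listed (median 0.59), and Mogat1, a monoacylglycerol acyltransferase, passed with a log2 fold change of 2.77. Among 14 paralogs of the members, 3 were listed (median 0.73) and Acsf3, a malonyl-CoA synthetase of the mitochondrion, passed with a log2 fold change of 0.67. Of 11 genes of malonyl-CoA sensing and fatty acid oxidation, 1 was listed, Cpt1b, named after its value was seen, and it did not pass (log2 difference 1.08, adjusted p = 0.0806 in limma).

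Each HFD array had all 10 hepatocyte markers well above background. In the table, 2 of the 10 were listed, both lower in HFD. Over all genes, 2.12% were listed as lower and 0.81% were called lower. Their summed level was 17.93 to 18.10 in HFD, against 18.46 to 18.59 in chow, on the log2 scale, and Serpina1a passed (log2 fold change -0.52, adjusted p = 0.0457 in limma). Of 8 stellate cell markers, 2 were listed as higher, both collagens, where 2.47% of all genes were listed as higher. Their summed level was 12.52 to 14.00 in HFD, against 11.68 to 11.93 in chow, and neither passed. HFD replicate 3 had the lowest value of both collagens and of Aacs. Of 7 adipocyte markers, none was in the table, 2 were well above background on all 3 HFD arrays, and Adipoq and Lep were not well above background on any. No marker of macrophages (7 on the array), endothelium (6), cholangiocytes (5), lymphocytes (6) or pancreas (5) was in the table. Whether cell makeup has a part in the members' differences was not tested.

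The genes whose profile lay nearest to that of Fasn were found among the 1166 other named genes of the table, by Euclidean distance over the 7 samples after subtracting each gene's chow mean. The nearest was Nek5 at a distance of 0.46, then Tmem86a (0.47), Tnfrsf23 (0.58), Tnfaip3 (0.61) and Tnfrsf18 (0.61). Nek5 had log2 values of 6.54, 6.12 and 6.23 in HFD, against 4.94, 4.64, 5.13 and 4.99 in chow, of which 1 chow value lay below 4.93, the highest detection floor of the HFD arrays. Tnfrsf18 also had chow values below that floor (4.286 in chow replicate 2 and 4.615 in chow replicate 3). It did not pass (adjusted p = 0.0688 in limma). Among the members, Pklr was nearest to Fasn, at rank 20 (0.80), followed by Acly at rank 175 and Me1 at rank 185.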

How the data were processed

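Liver RNA was labelled with Cy3 and hybridised 1 sample per Agilent array, per the labels' protocols. The deposited scanner files hold spot intensity values, background-subtracted by Feature Extraction 10.7.3.1 per the file headers (version 9.1 per the submitters' processing notes). A second deposited table holds log2 values of 1615 probes. How it was normalized and selected is not given in the sources used here. Column medians were 9.68 to 9.85 in HFD and 9.55 to 9.56 in chow. The HFD columns rose with the scanner signals, which sets their scale and direction, while that of the chow columns could not be checked.

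Of 39429 probes, 27234 had a gene name by RefSeq accession (assembly GRCm38.p6, from which the promoter windows also come). Genes with several table probes were represented by the one of highest mean. Differences were fitted with limma 3.58.1 (R 4.3.3), HFD minus chow, with a prior variance of 0.0363 on 2.14 degrees of freedom, estimated from the HFD scanner levels of 19500 genes that were above background on 2 or 3 arrays. Genes outside the table had a p of 1 in the Benjamini-Hochberg adjustment over 32451 genes. The limma step was tested on simulated data that lacked the table's selection, with adjustment over the table's genes alone. How it performs on a selected table was not tested. Scanner levels are log2 signals minus each array's 75th percentile over its probes, outlier spots left out. The mean signal column was not used, so the normexp alternative took the median signal.

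Named genes followed a rule: all members, up to 4 passing genes of each pathway list by the size of their fold change, and the 5 genes nearest to Fasn. Of the genes this rule names, 1 is not reported here. The members, the lists and the rule were chosen with earlier results of these data known.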

Additional observations from a re-analysis of the deposited data

Results flagged for a closer look

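The scanner files labelled chow, which the diet comparison does not use, held signal for the same probes: 16 of the 17 were well above background in all 4 of these files. The exception was the dimmer Acacb probe, well above background in none of them. In those files the Fasn probe had log2 levels of -2.28, -2.14, -2.30 and -2.10 relative to each array's 75th percentile, the listed Acacb probe had -2.09, -2.73, -2.47 and -2.45, and the brighter Acly probe had 4.86, 4.86, 4.84 and 4.76. Of the 10 hepatocyte markers, 3 were not well above background in any of the 4 files. What tissue these files hold was not tested, and no difference from the HFD arrays is drawn from them.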

How the results depend on the processing

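The members' log2 fold changes kept their direction, which the table's selection all but fixes, in all 98 refits (7 genes under 14 settings). In 51 of these each gene stayed on its side of an adjusted p of 0.05, in 42 it was no longer past it and in 5 it was newly past it. Me1 had log2 fold changes of 1.01 to 1.39. The 5 members called were 4 with columns centred on their medians, after quantile normalization and with values raised to the floor of 4.93, 6 with the mean of a gene's probes, and 7 with the table's own prior or with adjustment over the table alone. Leaving out 1 sample gave 0 to 1 members called, 0 to 240 genes called higher and 0 to 208 called lower in limma, in fits with fewer samples, while 801 and 687 table genes had an unadjusted p under 0.05 in each. Against 325 genes called higher and 263 lower, the table's own prior gave 552 and 474, adjustment over the table alone 801 and 687, centred columns 187 and 614, and quantile normalization 285 and 520. Among the 21 pairs of members, the change of Pklr minus Acacb was 0.00425 as deposited and -0.14 after quantile normalization, an alternative chosen after seeing the data, and the other 20 kept their sign. The share of higher calls follows the scaling of the columns. With the replicate number as a block, 0 members and 0 genes in either direction were called (7 members and 801 and 687 genes at an unadjusted p under 0.05), in a fit that leaves fewer degrees of freedom. Deviations of same-numbered samples had correlations of -0.10, 0.14 and 0.03, so the numbers were not taken as pairs. HFD scanner levels of all 17 probes moved by more than 1 SD with arrays centred on their medians, which shifts every level, and of 9 with normexp correction. None did so after quantile normalization or without any 1 HFD array.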
